A study of Mus musculus with 16 samples.

Results

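The Schlafen family is a cluster of related genes on mouse chromosome 11 that immune cells express and interferons induce. The genes described here were taken by name: Slfn1, Slfn2, Slfn3, Slfn4, Slfn5, Slfn8 and Slfn9, that is 7 of the 56748 genes in the tables, in all 16 samples. They were read in memory CD4+ T cells that had lost HP1α or HP1γ, heterochromatin proteins that bind methylated histone H3 lysine 9 and help to keep genes silent. All 7 passed the filter on low counts in every comparison.

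By their labels and the methods of the study, the cells were splenic memory CD4+ T cells (CD4+, CD25 low or negative, CD62L negative, CD44 high) sorted by flow cytometry from young adult littermates of matched sex, with 4 samples in each of 4 groups. The treatment and growth fields of the same labels instead describe cultured and transferred regulatory T cells. That conflict could not be settled here, and those fields were not used. HP1α KO mice were homozygous for a deletion made by crossing a floxed Hp1a allele to CMV-cre, which acts in every tissue, and HP1α WT mice were their +/+ littermates from heterozygous parents. HP1γ KO mice carried homozygous floxed Hp1g alleles and the Cd4-cre transgene, which acts in T cells, and HP1γ WT littermates carried the floxed alleles without Cre. The effects of Cre and of HP1γ loss therefore cannot be told apart, and all HP1γ samples carry floxed alleles that no HP1α WT sample carries. Mice of both lines had a mixed genetic background, so a difference between lines cannot be told apart from background, breeding or handling. Poly(A) RNA was sequenced from a stranded kit, with 26694045 to 40199637 estimated counts per sample. Nothing in the labels states that each sample is a separate animal, so p-values measure the spread between these samples.

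Schlafen proteins fall into a short group (Slfn1, Slfn2), an intermediate group (Slfn3, Slfn4) and a long group with a helicase-like part (Slfn5, Slfn8, Slfn9). Several members bind or cut transfer RNA. In T cells the family is known for growth control: Slfn1 slows the growth of thymocytes when overexpressed, and Slfn2 is needed to keep T cells quiescent and protects transfer RNAs from cleavage. Slfn4 is known mainly from myeloid cells, and Slfn5 and Slfn8 are induced by type I interferon.

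The genes lie between 82842100 and 83109101 on chromosome 11 (GRCm39, GENCODE). From the left they are Slfn5, Slfn9, Slfn8, Slfn2, Slfn1, Slfn4 and Slfn3, with Slfn8 and Slfn9 on the minus strand. Slfn10-ps, a family gene outside the 7 that GENCODE now names Slfn10 and annotates with loss-of-function transcripts, lies on the minus strand at 82918956 to 82958140 and overlaps the start of Slfn2 at 82955609. Slfn8, Slfn9 and Slfn10-ps are close copies: their coding sequences were 92.7% to 93.2% identical in each pair. Slfn3 and Slfn4 were 91.8% identical. The stretches below, 120 bases nearest the middle of the Slfn8 coding sequence and the aligned bases of the other genes, show how little separates the copies. Capitals mark the 5 positions at which the 3 sequences are not all the same.
Slfn8, coding bases 1306 to 1425: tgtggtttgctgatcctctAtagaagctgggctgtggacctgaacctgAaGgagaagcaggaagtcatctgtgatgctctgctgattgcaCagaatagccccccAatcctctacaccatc
Slfn9, coding bases 1306 to 1425: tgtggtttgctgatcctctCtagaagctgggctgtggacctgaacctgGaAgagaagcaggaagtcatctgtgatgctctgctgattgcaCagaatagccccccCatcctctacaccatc
Slfn10-ps, coding bases 1357 to 1476: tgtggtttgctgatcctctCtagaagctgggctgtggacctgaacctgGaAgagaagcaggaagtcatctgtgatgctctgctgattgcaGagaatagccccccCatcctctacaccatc
Of all 31-base windows in the longest coding transcript, 27.2% in Slfn8 and 17.9% in Slfn9 occurred on the same strand in another of these 8 genes. The share was 15.6% in Slfn4, 10.7% in Slfn3, 6.78% in Slfn2, 1.81% in Slfn1 and 0% in Slfn5. With windows of 150 bases, the read length, it was 0% in Slfn8 and 1.36% in Slfn9. Counting by estimation can divide a read among genes, which leaves counts that are not whole. With a tolerance of 1e-09, the deposited counts of Slfn3, Slfn4, Slfn8 and Slfn9 were not whole in any of the 16 samples and lay up to 0.394, 0.109, 0.494 and 0.472 from a whole number. Those of Slfn2 lay at most 0.04 from one, and those of Slfn1 were whole in all 16. Slfn5 was not whole in 5 samples, by up to 0.383. It shared no window with the other 7 genes, but 5.88% of its 31-base windows occurred in transcripts of genes outside them. Counted over all genes, the share was 27.5% in Slfn8, 22.4% in Slfn9, 20.8% in Slfn4, 18.8% in Slfn3, 9.63% in Slfn2 and 1.81% in Slfn1. The distance from a whole number does not show how many reads were divided. Values for Slfn8, Slfn9 and Slfn10-ps singly, and for Slfn3 and Slfn4 singly, are therefore uncertain by an amount that was not measured.

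The promoter windows of 4 members (RefSeq windows of 300 bases, 250 before to 50 after the annotated start, each placed by exact match in GRCm39) show the core of the interferon-stimulated response element (GAAA, any 2 bases, then GAAA, on either strand) in capitals. It was found in Slfn5, Slfn8 and Slfn9 of the 7, and in 3.44% of 32851 promoter windows. In Slfn8 and Slfn9 it lay at nearly the same place, 48 and 45 bases before the start, and 248 of 292 aligned bases of these windows were identical. In Slfn5 it lay 155 bases before the start. RefSeq gives Slfn8 a further start, from which the same element lies 136 bases away. Slfn2, the most abundant member, is shown as one whose window holds none. The letters TTCNNNGAA, bound by STAT factors, were in 8.3% of all windows and in none of the 7 genes'.
Slfn8, chr11:82911587-82911886, minus strand: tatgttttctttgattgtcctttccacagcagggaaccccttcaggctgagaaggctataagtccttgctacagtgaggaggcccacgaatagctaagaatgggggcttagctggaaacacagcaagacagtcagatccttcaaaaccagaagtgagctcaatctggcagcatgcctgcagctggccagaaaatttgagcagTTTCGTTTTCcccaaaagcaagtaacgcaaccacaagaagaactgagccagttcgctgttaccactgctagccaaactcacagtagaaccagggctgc
Slfn9, chr11:82882607-82882906, minus strand: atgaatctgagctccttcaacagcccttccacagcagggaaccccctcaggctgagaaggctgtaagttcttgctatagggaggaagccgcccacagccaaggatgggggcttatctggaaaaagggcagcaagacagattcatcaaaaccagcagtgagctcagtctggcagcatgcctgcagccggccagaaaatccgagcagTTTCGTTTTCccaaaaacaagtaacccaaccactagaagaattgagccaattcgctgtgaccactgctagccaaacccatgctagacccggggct
Slfn5, chr11:82842678-82842977, plus strand: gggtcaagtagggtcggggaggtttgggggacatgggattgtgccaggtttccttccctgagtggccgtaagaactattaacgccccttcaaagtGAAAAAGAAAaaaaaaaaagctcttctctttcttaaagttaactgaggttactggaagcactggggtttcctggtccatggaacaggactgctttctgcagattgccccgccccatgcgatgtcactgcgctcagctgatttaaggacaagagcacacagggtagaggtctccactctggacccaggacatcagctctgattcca
Slfn2, chr11:82955688-82955987, plus strand: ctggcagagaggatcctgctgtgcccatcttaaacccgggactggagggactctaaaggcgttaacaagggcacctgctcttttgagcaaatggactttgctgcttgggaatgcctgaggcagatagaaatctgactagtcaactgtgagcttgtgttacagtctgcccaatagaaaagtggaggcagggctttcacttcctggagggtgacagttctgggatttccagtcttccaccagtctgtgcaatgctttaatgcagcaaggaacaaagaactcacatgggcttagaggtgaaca

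Slfn2 was by far the most abundant member per unit of length. Its mean level was 205 ± 34.4 TPM (length-scaled share of all transcripts; SD, n = 16), above 97.6% of the 29328 genes detected. Slfn1 followed at 54.8 ± 13.4 TPM, then Slfn5 at 28.7 ± 7.06 TPM and Slfn8 at 24.0 ± 4.63 TPM. Slfn9 at 3.70 ± 0.733 TPM, Slfn3 at 2.60 ± 0.889 TPM and Slfn4 at 0.326 ± 0.403 TPM were low. Within each of the 16 samples every member lay above the next in this order. Over all samples, however, the TPM ranges of Slfn1 and Slfn5, of Slfn5 and Slfn8, of Slfn9 and Slfn3, and of Slfn3 and Slfn4 overlapped. The order therefore held within samples more firmly than between them.

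**Figure D1:**
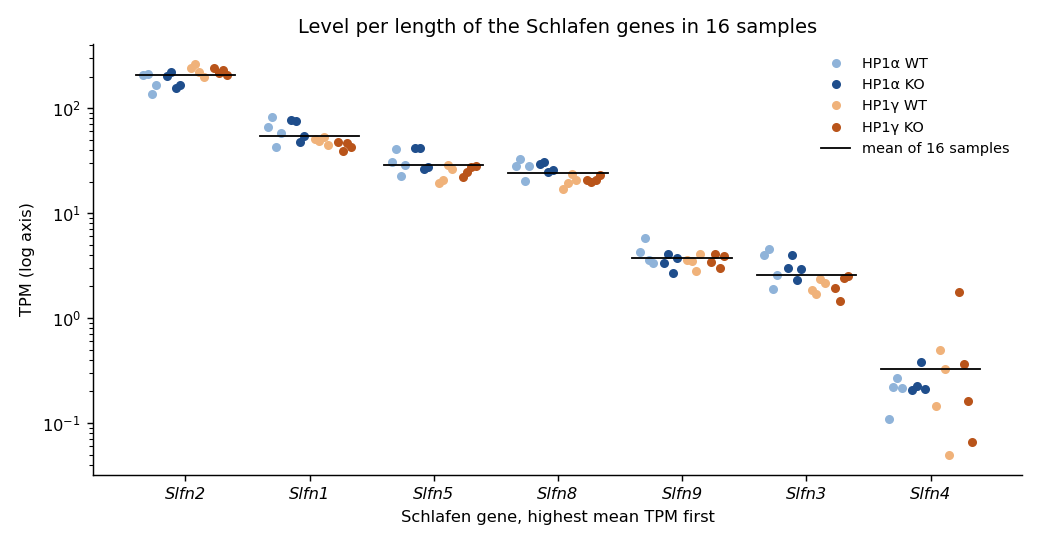
TPM (log axis) of the 7 genes in each of 16 samples, colored by group, with a bar at the mean of all 16. Slfn2 sits highest at 137 to 266 TPM and Slfn4 lowest at 0.0494 to 1.77 TPM.

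In HP1α KO cells no Schlafen gene differed detectably from HP1α WT. The edgeR quasi-likelihood test with Benjamini-Hochberg adjustment called 0 of 7 members at an adjusted p under 0.05, and 0% of the 14881 genes tested. At an unadjusted p under 0.05 it was 0 of 7 members and 4.27% of genes, and DESeq2 also called 0 members. The deleted gene itself, Cbx5, which encodes HP1α, was at 27.1 CPM in KO and 40.3 CPM in WT cells (depth-scaled counts after TMM normalization). Its log2 fold change was -0.58 (SE 0.15, edgeR p 0.0026, adjusted p 0.946). As even the deleted gene was not called, the absence of called members does not show that they were unchanged.

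Slfn2 was at 197, 217, 162 and 159.7 CPM in HP1α KO, against 204, 200.2, 142 and 167 CPM in HP1α WT. The groups overlapped throughout (log2 fold change 0.05, 95% interval -0.25 to 0.34). Slfn1 was at 85.9, 82.6, 56.2 and 59.5 CPM in KO and 73.0, 89.5, 50.6 and 65.1 CPM in WT, a log2 difference of 0.03 with an interval of -0.38 to 0.44. Both short members therefore spread more within each genotype than between genotypes. Slfn8 had the narrowest interval of the 7, -0.29 to 0.20 around a log2 fold change of -0.04. Slfn5 (log2 fold change 0.08, -0.35 to 0.51) and Slfn3 (-0.07, -0.64 to 0.50) were less tightly bounded. Slfn9 had the largest difference: 11.2, 13.0, 8.37 and 11.5 CPM in KO against 13.1, 18.1, 12.5 and 10.1 CPM in WT. The log2 fold change was -0.29 (-0.70 to 0.11, adjusted p 0.946). Its groups overlapped, and the highest value was that of HP1α WT replicate 2, without which the log2 fold change was -0.11. Slfn4 stayed under 1 CPM in all 8 samples (log2 fold change 0.12, -0.66 to 0.91).

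Within the HP1α line several members were ordered by sample number and not by genotype. For Slfn1, Slfn2, Slfn3 and Slfn5 the samples numbered 1 and 2, KO and WT, were the 4 highest of the 8. Slfn5 was at 119.7 and 120.2 CPM in KO and 91.0 and 129.1 CPM in WT replicates 1 and 2, against 83.6, 77.2, 71.0 and 87.8 CPM in replicates 3 and 4. Slfn8 nearly followed the same order, with HP1α WT replicate 4 at 64.1 CPM beside 62.8 to 71.4 CPM in replicates 1 and 2 and 49.3 to 56.8 CPM in the others. In the same samples the summed level of 8 monocyte and macrophage markers was 114.5 to 147 CPM in replicates 3 and 4 and 60.9 to 92.0 CPM in replicates 1 and 2. Neutrophil markers summed to 2.97 to 14.9 CPM in replicates 3 and 4 and 0.125 to 0.636 CPM in replicates 1 and 2, and dendritic cell markers to 25.9 to 53.9 and 17.0 to 22.8 CPM. The sums of B cell markers overlapped, at 474 to 1083 and 419 to 530 CPM. Their part in the Schlafen values was not tested. In a bulk sample, fewer cells of a type and less RNA per cell cannot be told apart.

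In HP1γ KO cells, too, no member passed the test: 0 of 7 were called, beside 0.327% of 14975 genes. The targeted gene, Cbx3, which encodes HP1γ, was lower in KO cells (log2 fold change -0.82, SE 0.08, adjusted p 0.0015). At an unadjusted p under 0.05 there was 1 member of 7, Slfn1, beside 11.9% of genes. Slfn1 was at 51.3, 41.6, 50.9 and 45.5 CPM in HP1γ KO and 60.1, 55.5, 56.6 and 49.5 CPM in HP1γ WT. Only HP1γ WT replicate 4 fell among the KO values, and the log2 fold change was -0.22 (SE 0.09, 95% interval -0.41 to -0.03, adjusted p 0.380). Slfn2 was at 229, 200.5, 223 and 192 CPM in KO and 251, 270.5, 206 and 196 CPM in WT (log2 fold change -0.12, -0.36 to 0.12), with overlapping groups.

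Of the long members, Slfn8 was at 44.3, 42.7, 45.9 and 46.8 CPM in HP1γ KO and 41.0, 44.9, 49.6 and 47.1 CPM in HP1γ WT. Its log2 fold change was -0.01, with an interval of -0.18 to 0.15. Slfn5 gave 0.06 (-0.14 to 0.26) and Slfn9 0.00099 (-0.28 to 0.28) on the log2 scale. Slfn3, of the intermediate group, gave -0.0016 with a wider interval of -0.51 to 0.50.

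Slfn4 was the exception in spread. It was at 4.02 CPM in HP1γ KO replicate 1 and at 0.511, 0.392 and 0.154 CPM in the other KO samples, against 0.356, 1.27, 0.760 and 0.122 CPM in HP1γ WT. The log2 fold change of 0.97 had an interval of -1.12 to 3.06 (adjusted p 0.714), and without that library it was -0.86. The same library held the most neutrophil marker RNA: the 7 neutrophil markers summed to 50.3 CPM there, 0.555 to 11.2 CPM in the other HP1γ KO samples and 0.152 to 14.3 CPM in HP1γ WT. Each of the 7 was detected in at least 6 of the 16 samples, and Ly6g and Camp were at 0 in 10. The part of these cells in the Slfn4 value was not tested.

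**Figure D2:**
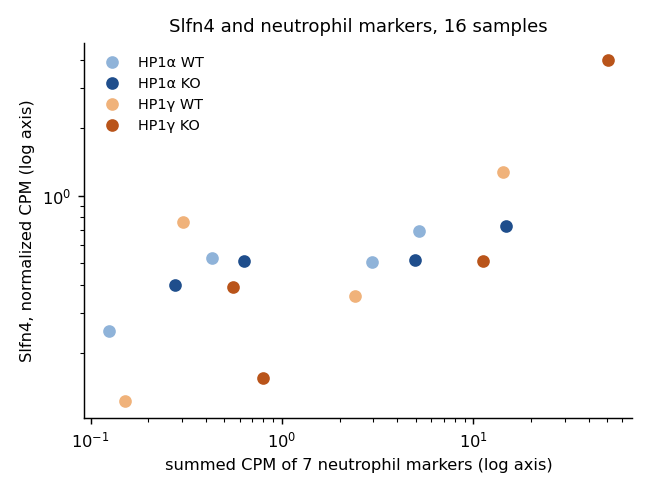
Slfn4 in normalized CPM against the summed CPM of 7 neutrophil markers (both log axes), one point per sample. HP1γ KO replicate 1 stands apart at 4.02 CPM of Slfn4 and 50.3 CPM of markers.

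Slfn10-ps, the copy outside the 7, had a larger difference than Slfn8 or Slfn9, though the difference between copies was not tested. It was at 14.2, 15.96, 15.9 and 14.7 CPM in HP1γ KO and at 10.9, 10.1, 11.2 and 13.5 CPM in HP1γ WT, with no overlap, as in 7.11% of genes in that comparison. The log2 fold change was 0.42 (SE 0.11, p 0.0024), but the adjusted p was 0.191 by edgeR and 0.0393 by DESeq2. In HP1α KO cells it gave -0.16 (adjusted p 0.946). The sum of Slfn8, Slfn9 and Slfn10-ps, to which the division of reads among the copies matters less, differed by 0.07 in the HP1γ line (adjusted p 0.678) and by -0.09 in the HP1α line (adjusted p 0.950).

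**Figure D3:**
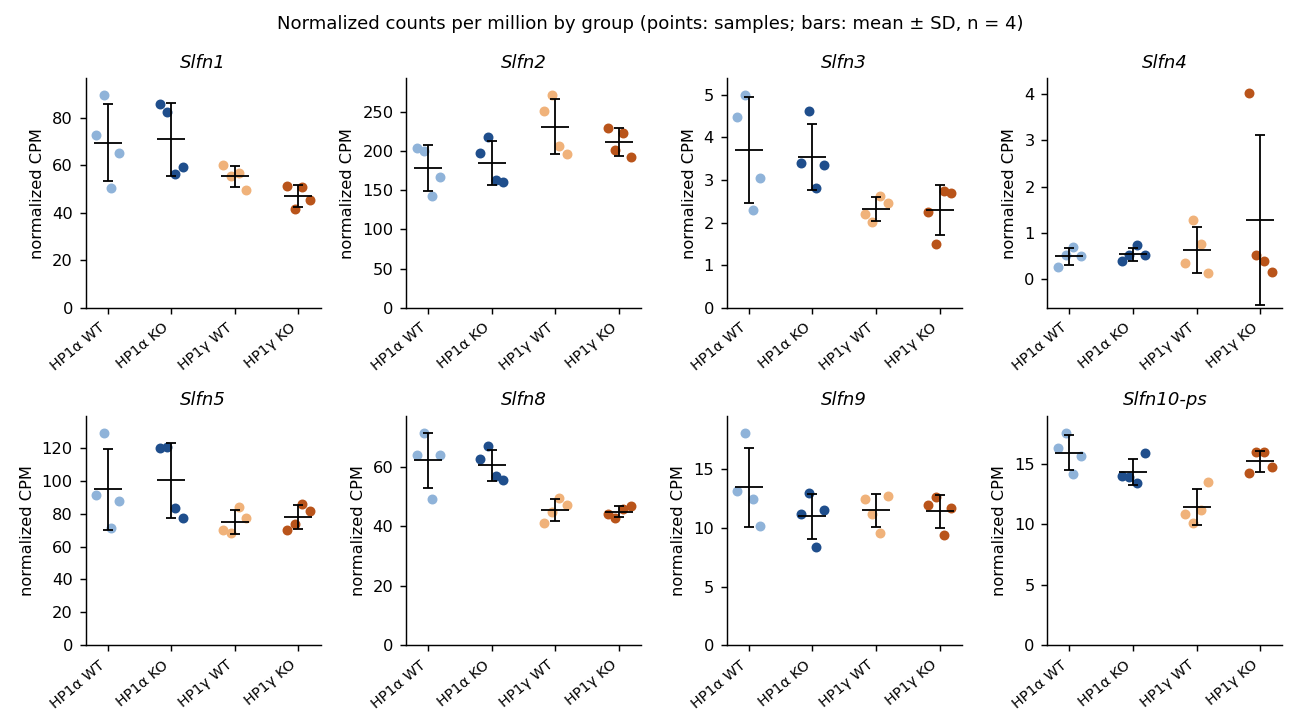
Normalized CPM of the 7 genes and Slfn10-ps in the 4 groups, with points for samples and bars for mean ± SD (n = 4). Slfn1, Slfn3, Slfn5 and Slfn8 have higher means in both HP1α groups than in both HP1γ groups, and Slfn2 lower means.

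Tested directly, the effect of knockout did not differ detectably between the lines for any member. The interaction called 0 of 7, beside 0.0507% of 15776 genes, and 0 of 7 had an unadjusted p under 0.05, beside 9.58% of genes. DESeq2 also called none. The largest value was -0.85 for Slfn4, with a wide 95% interval of -3.23 to 1.53 (adjusted p 0.880). Slfn9 followed at -0.28 (95% interval -0.78 to 0.21, adjusted p 0.753, and -0.11 without HP1α WT replicate 2). Slfn1 was at 0.26 (-0.21 to 0.73, adjusted p 0.767). For Slfn8 the interaction was -0.02 (-0.31 to 0.27). Slfn10-ps gave -0.57 (-0.86 to -0.28, p 0.00078, adjusted p 0.242 by edgeR and 0.0232 by DESeq2).

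Between the WT cells of the lines 1 of 7 members was called, near the share of 12.8% among all 14804 genes tested. At an unadjusted p under 0.05 there were 4 of 7 (Slfn1, Slfn2, Slfn3, Slfn8), beside 29.9% of genes. The members' median log2 fold change, HP1α WT over HP1γ WT, was 0.32, and that of all genes was 0.02. The called member, Slfn8, was at 64.1, 71.4, 49.3 and 64.1 CPM in HP1α WT and at 41.0, 44.9, 49.6 and 47.1 CPM in HP1γ WT. HP1α WT replicate 3 was the 1 sample that lay inside the HP1γ range. Means were 62.2 ± 9.29 and 45.7 ± 3.66 CPM, a log2 fold change of 0.44 (SE 0.11, adjusted p 0.0266). The call was lost (adjusted p 0.0648 to 0.0838) when any of HP1α WT replicates 1, 2 or 4 or HP1γ WT replicates 1 or 2 was left out, and on log2 TPM with limma (0.120 to 0.230). The sum of Slfn8, Slfn9 and Slfn10-ps gave 0.42 (adjusted p 0.0241).

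Slfn2 went the other way. It was at 204, 200.2, 142 and 167 CPM in HP1α WT and 251, 270.5, 206 and 196 CPM in HP1γ WT, a log2 fold change of -0.38 (-0.66 to -0.09, adjusted p 0.0813) that DESeq2 called. Slfn3 was at 4.48, 4.98, 2.30 and 3.04 CPM against 2.20, 2.00, 2.62 and 2.47 CPM (log2 fold change 0.67, 0.13 to 1.21, adjusted p 0.0943), and was also called by DESeq2. The sum of Slfn3 and its close copy Slfn4 gave 0.51 (adjusted p 0.144). In Slfn3, HP1α WT replicate 3 again fell inside the HP1γ range, and without it Slfn1, Slfn3 and Slfn8 were all called. Slfn1 (0.32, adjusted p 0.154), Slfn5 (0.33, adjusted p 0.170), Slfn9 (0.23, adjusted p 0.388) and Slfn4 (-0.37, adjusted p 0.714) did not pass. Slfn10-ps was called (log2 fold change 0.48, SE 0.11, adjusted p 0.0236), and its values of 14.1 to 17.5 CPM in HP1α WT lay above all of HP1γ WT, which 8.81% of genes also did.

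The knockouts of the lines, compared after the WT result was known, gave a similar picture for Slfn8. It was at 62.8, 67.0, 56.8 and 55.7 CPM in HP1α KO and at 42.7 to 46.8 CPM in HP1γ KO, without overlap (log2 fold change 0.43, SE 0.07, adjusted p 0.00279). Slfn1 was at 56.2 to 85.9 CPM against 41.6 to 51.3 CPM, again without overlap (0.59, SE 0.14, adjusted p 0.0109). These were 2 of 7 called, and 32.8% of 15020 genes were called. Slfn3 did not overlap either (2.80 to 4.61 against 1.49 to 2.75 CPM, adjusted p 0.0694). In the same comparison 16.4% of genes were higher in HP1α KO without overlap. Slfn2 gave -0.19 (adjusted p 0.181). Slfn10-ps, called between the WT groups, gave -0.09 here (adjusted p 0.463). The samples of this comparison differ in the deleted gene as well as in line. With all 16 samples and genotype in the model, 5 of 7 were called beside 41.8% of 15776 genes: Slfn1, Slfn3, Slfn5 and Slfn8 were higher and Slfn2 lower in the HP1α line. That fit reuses the samples of both preceding comparisons.

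**Figure D4:**
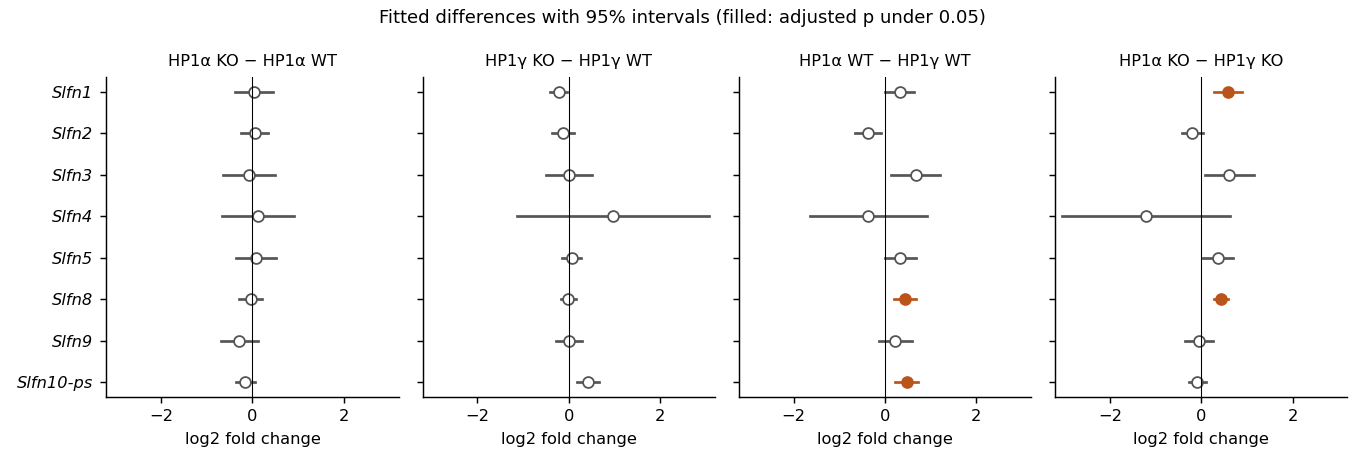
Fitted log2 fold changes of the 7 genes and Slfn10-ps with 95% intervals in 4 comparisons, filled where the adjusted p is under 0.05. Both knockout panels hold no filled point, while Slfn8 is filled in both comparisons of lines.

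The makeup of the family also differed in range between the lines. Slfn2 made up 55.7% to 61.1% of the summed TPM of the 7 genes in the 8 HP1α-line samples and 66.4% to 73.9% in the 8 HP1γ-line samples. Slfn1 made up 18.3% to 22.0% against 12.9% to 16.1%, and Slfn8 8.14% to 9.64% against 5.12% to 7.49%. None of these 3 ranges overlapped between lines, and knockout and WT lay together within each line. Differences between lines were common: with all 16 samples in the model, 41.8% of 15776 genes were called between them. How often the ranges of other genes separate by line was not counted. Shares of Slfn5, Slfn3, Slfn9 and Slfn4 overlapped. The shares in a sample add up to the whole, so a lower share of Slfn2 goes with higher shares of others by construction, and no test was made on them. The summed TPM itself overlapped, at 229 to 379 in the HP1α line and 298 to 360 in the HP1γ line.

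**Figure D5:**
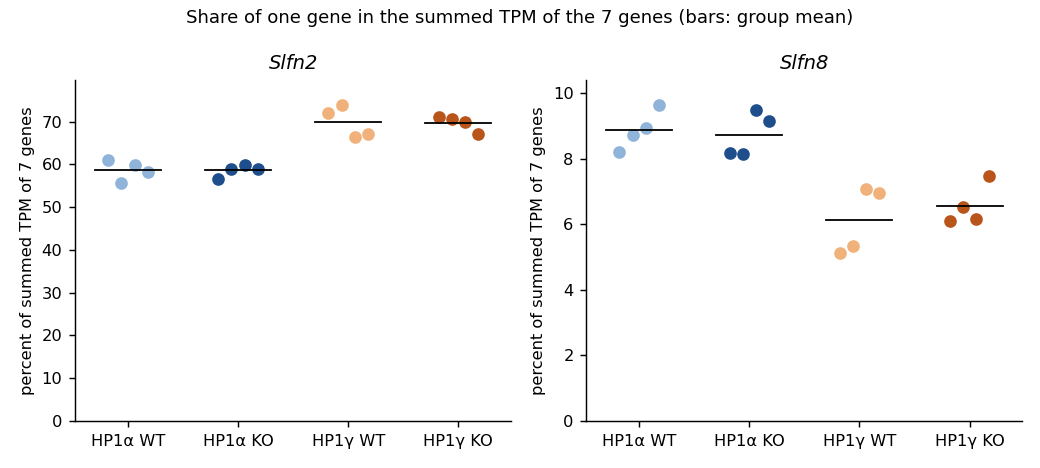
Percent of the summed TPM of the 7 genes held by Slfn2 (left) and Slfn8 (right) in each sample, with bars at group means. For Slfn2 the HP1α-line samples lie at 55.7% to 61.1% and the HP1γ-line samples at 66.4% to 73.9%.

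Marker genes gave context for the line comparisons. Cd4 was at 1015 to 1369 CPM and none of the 8 memory CD4 T cell markers was at 0 in any sample. The summed level of these markers was 4235 to 4385 CPM in HP1α WT and 4686 to 4948 CPM in HP1γ WT, with Cd44, Icos and Cd28 called lower in HP1α WT. B cell markers summed to 419 to 731 CPM in HP1α WT and 359 to 432 CPM in HP1γ WT, and CD8 T cell markers to 5.08 to 6.34 and 5.74 to 10.4 CPM. Dendritic cell markers summed to 17.0 to 31.1 and 18.0 to 76.9 CPM, regulatory T cell markers to 222 to 316 and 191 to 339 CPM, and NK cell markers to 49.6 to 73.9 and 53.8 to 77.9 CPM. Between the knockouts, the B cell immunoglobulin genes Ighm (487 against 325 CPM) and Igkc (137 against 51.2 CPM) were called higher in HP1α KO, and Siglech, of plasmacytoid dendritic cells (13.8 against 51.3 CPM), and Cybb, of phagocytes (31.2 against 55.5 CPM), lower. Ighm and Igkc were the 2 called of 8 B cell markers tested. Siglech was 1 of 2 called of 5 dendritic cell markers, of which 1 was higher in HP1α KO. Cybb was the only gene called of 7 monocyte and macrophage markers, of which 3 were higher in HP1α KO. The sums of monocyte and macrophage markers overlapped, at 71.7 to 147 CPM in HP1α KO and 96.4 to 139 CPM in HP1γ KO. Eomes, an NK cell marker that memory T cells also express, was called lower in HP1α WT. The part of these cells in the Schlafen differences between lines was not tested.

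Genes of the pathways in which Schlafen proteins are known were counted in the same fits. In the WT comparison, 2 of 47 interferon-stimulated genes were called, beside 12.8% of all genes, and both were higher in HP1α WT: Ifit2, an RNA-binding antiviral protein (29.2 against 21.5 CPM, log2 fold change 0.44, adjusted p 0.0303), and Ifi208, of the nucleic acid sensor family (93.7 against 69.9 CPM, 0.42, adjusted p 0.0436). Their list median was 0.13 against 0.02 for all genes, and 30 of 47 were above 0, beside 52.1% of all genes. Of 13 genes of interferon reception and signaling 1 was called, beside the same 12.8% of all genes. It was Usp18, which restrains the receptor and was higher in HP1α WT (6.75 against 3.94 CPM, log2 fold change 0.77, at the threshold). Of 22 genes tied to T cell quiescence, 5 were called, beside the same 12.8%, and all were lower in HP1α WT. They were Klf4 (log2 fold change -0.72, adjusted p 0.00403), Btg1 (-0.58, adjusted p 0.00403) and Tob1 (-0.39, adjusted p 0.0234), which hold back proliferation, the chaperone Dnajb6 (-0.56, adjusted p 0.0108) and the egress receptor S1pr1 (-0.74, adjusted p 0.00378). Of 13 genes that cleave, protect or mature transfer RNA none was called, with 2 at an unadjusted p under 0.05, beside 29.9% of all genes.

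In the knockout comparisons none of these genes was called by edgeR. In HP1α KO cells 1 of 47 interferon-stimulated genes had an unadjusted p under 0.05 (median log2 fold change -0.05), beside 4.27% of all genes. In HP1γ KO cells 13 of 47 did, beside 11.9% of all genes, and 8 of 47 were above 0 (median -0.13), beside 50.1% of all genes. Among these 13, Ifi209, of the nucleic acid sensor family, had the smallest p, with a log2 fold change of -0.31 (adjusted p 0.120), Gbp2, an interferon-induced GTPase, had -0.31 (0.188), and Mx1, an antiviral GTPase, had 0.45 (0.359). Between the knockouts of the lines, 16 of 47 were called higher and 2 lower in HP1α KO, beside 16% and 16.8% of all genes, with Ifi206 (log2 fold change 0.82, adjusted p 0.00285), Ifi209 (0.54, adjusted p 0.00367) and Ifi208 (0.64, adjusted p 0.00472) having the smallest p-values. The 22 quiescence genes went both ways there, with 2 called higher and 6 lower in HP1α KO.

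The genes whose log2 CPM followed each member most closely over the 16 samples were named by Pearson r, as a description. The points share libraries and fall into the 2 lines, so r within the HP1α and HP1γ lines (8 samples each) follows the r over 16 samples in each parenthesis. Slfn8 was most like Ddx58, the cytosolic RNA sensor RIG-I (r 0.965, 0.975 and 0.899), then Morc3 (0.965, 0.937 and 0.900) and Asb13 (0.960, 0.954 and 0.874). Slfn3 was most like Ccdc82 (0.950, 0.880 and 0.938), Cfap97 (0.938, 0.909 and 0.887) and Ifit2 (0.934, 0.917 and 0.850). Slfn1 was most like Tmod3 (0.928, 0.894 and 0.802), Tgtp2, an interferon-induced GTPase (0.915, 0.901 and 0.887), and Ifi208 (0.910, 0.967 and 0.611). Slfn5 followed Zscan29 (0.903, 0.890 and 0.657), the histone chaperone Daxx (0.897, 0.895 and 0.815) and Mis12 (0.895, 0.889 and 0.512). Slfn2 followed Gimap9, of a lymphocyte GTPase family (0.911, 0.958 and 0.741), Aqp11 (0.892, 0.801 and 0.906) and Commd8 (0.879, 0.897 and 0.730). Aqp11 was low, at group means of 0.175 and 0.194 CPM in HP1α KO and WT and 0.505 and 0.529 CPM in HP1γ KO and WT. Slfn9 followed Sar1b (0.842, 0.923 and 0.469), Ppp1r7 (0.833, 0.873 and 0.701) and Rad17 (0.812, 0.907 and 0.564), with lower values in the HP1γ line. Slfn4 was below the level set for this description.

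The other family genes were low. Slfn14, an endoribonuclease gene at the right edge of the cluster, was at 0 to 0.257 CPM in the HP1α line and 0.0608 to 1.67 CPM in the HP1γ line. It did not pass the filter on low counts between the WT groups, between the knockouts or within the HP1α line. With all 16 samples in the model it was called lower in the HP1α line (log2 fold change -2.94, SE 0.69, adjusted p 0.0031). In that fit 41.8% of 15776 genes were called, and the ranges of Slfn14 overlapped. Its counts reached 49 in HP1γ KO, 8 in HP1α KO and 7 in HP1α WT. As it entered that fit through the HP1γ line, where it was higher, the call gives no separate support for a difference. Slfnl1, on chromosome 4, reached at most 0.227 CPM, and Slfn5os, antisense to Slfn5, at most 0.0515 CPM. A level under 3 counts, 0.0750 to 0.114 CPM depending on the library, could not be told from none at this depth, for counting error alone. Of 61 other genes within 500 kb of the cluster, 21 were tested between the WT groups and 1 was called, Slfn10-ps, beside 12.8% of all genes. Between the knockouts of the lines 3 of 22 were called, beside 32.8% of all genes. With all 16 samples in the model, 7 of 23 were called higher and 1 lower in the HP1α line, beside 41.8% of all genes in either direction. Neither comparison of knockout with WT called any of the 21 or 22 tested in that window.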

How the data were processed

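RNA was read from 16 samples of sorted splenic memory CD4+ T cells, 4 in each of 4 groups set by the labels. The authors processed the reads with the nf-core RNA-seq pipeline (STAR and Salmon, GRCm39) and deposited estimated counts per gene, of which 11.6% of values were not whole, and TPM values. Here the estimated counts were rounded and tested with edgeR 4.0.16 (R 4.3.3): TMM scaling, filterByExpr with a minimum count of 10, the quasi-likelihood test and Benjamini-Hochberg adjustment over all genes tested. A gene was called at an adjusted p under 0.05. CPM was taken after TMM scaling over all 16 samples, and TPM was used to compare genes per length. Intervals are at 95%. DESeq2 1.42.0, limma 3.58.1 on log2(TPM + 1) or log2(TPM + 0.1), other scaling and filters, and leaving out each sample were tried. On simulated data edgeR recovered 100% of 200 genes changed by 2 on the log2 scale in each comparison, and 4.31% to 5.66% of its calls were false. Changes as small as those of the members were not simulated, so this recovery does not show that they would be found. The members and gene lists were chosen with earlier results of these data known. The genes named are the members, the other Schlafen genes, called genes of the lists and the 3 genes most like each member, and the interferon-stimulated genes named without a call were chosen after their values were seen.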

Additional observations from a re-analysis of the deposited data

Results flagged for a closer look

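Slfn4 in HP1γ KO replicate 1, at 4.02 CPM, stood far from the other 3 samples of its group, the nearest of which was at 0.511 CPM. The gap was 0.908 of the group's whole range, above Dixon's 95% critical value for 4 samples. It was the 1 outlying value in 28 groups examined, and chance gives about 1 in 20.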

How the results depend on the processing

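No member was called in either knockout comparison or in the interaction under any alternative run. The number of genes called in HP1α KO against WT was 0, but 5 with DESeq2, 1 without the filter on low counts, 3 with each limma setting and 0 to 3 leaving out a sample. In HP1γ KO against WT it was 49, but 252 with DESeq2, 96 with all 16 samples in one fit, 17, 22 and 12 with limma (log2(TPM + 1), log2(TPM + 0.1) and no filter) and 30 to 49 leaving out a sample. For the interaction it was 8, but 79 with DESeq2, 14 without the filter and 5, 3 and 5 with limma. Between the WT groups it was 1896, but 1050, 1055 and 551 with limma, 573 to 2185 leaving out a sample, 4921 between the knockouts and 6595 with all samples. The members called there, 1 in the main result, were 3 with DESeq2, 0 with each limma setting, 0 with paralogues summed (3 members then remain to be tested singly), 0 to 3 leaving out a sample, 2 between the knockouts and 5 with all samples. Nothing in the labels says that samples of the same number share a litter, batch or day, and not every pair correlated over 0.1: their deviations correlated at 0.094 to 0.228 in the HP1α line (3 of 4 pairs over 0.1, and 3 of 4 best matched to their own number), 0.0029 to 0.153 in the HP1γ line (2 of 4 over 0.1, 1 of 4 best matched) and -0.204 to -0.065 between the WT groups (0 of 4). With the replicate block the WT comparison called 577 genes, Slfn2 (adjusted p 0.0492) but not Slfn8 (0.0824), and the interaction 13. The sign changed in the following values. With limma (log2(TPM + 1), log2(TPM + 0.1)) Slfn8 became 0.0258 and 0.0271 in the HP1α line and 0.0638 and 0.0669 in the HP1γ line, and Slfn3 0.0217 and 0.0245 in the HP1γ line. Slfn9 in the HP1γ line became -0.00553 with DESeq2, -0.000226 with RLE factors, -0.0134 without the filter, -6.11e-05 with the replicate block and -0.00889 with all 16 samples. Slfn3 in the interaction became 0.0094 with the block. Between the knockouts Slfn9 was at -0.0505 and Slfn10-ps at -0.0876. Leaving out a sample, HP1α values ran from -0.0953 to 0.175 (Slfn1), -0.0482 to 0.117 (Slfn2), -0.237 to 0.109 (Slfn3), -0.0936 to 0.323 (Slfn4), -0.0358 to 0.267 (Slfn5) and -0.137 to 0.0323 (Slfn8). HP1γ values ran from -0.0932 to 0.155 (Slfn3), -0.863 to 1.59 (Slfn4), -0.0655 to 0.0306 (Slfn8) and -0.0732 to 0.0852 (Slfn9). Slfn4 between the WT groups ran from -0.701 to 0.253. Interaction values ran from -0.227 to 0.120 (Slfn3), -1.46 to 0.985 (Slfn4), -0.0880 to 0.214 (Slfn5) and -0.112 to 0.0555 (Slfn8). The cause of these shifts was not tested. Per kb of the longest coding transcript the order of levels was the same, and the share of Slfn3 was 0.358% in place of 0.811%.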
